A study of Homo sapiens with 8 samples.

Results

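The genes described here are the JUN and FOS families, ATF3, EGR1 and IER2, which together make up the transcription factor AP-1 and a group of immediate-early genes. They were measured in the primary effusion lymphoma lines BC3 and BCBL1. Members were taken as every probe of the deposited intensity table whose annotated symbol was JUN, JUNB, JUND, FOS, FOSB, FOSL1, FOSL2, ATF3, EGR1 or IER2. This gave 12 probes for 10 genes, of 47322 probes analysed and 20046 genes with a named probe. ATF3 had 3 probes and each other gene had 1. The 4 groups were BC3 with 5 µM lenalidomide, BC3 with the solvent DMSO, BCBL1 with 5 µM lenalidomide and BCBL1 with DMSO, with 2 Illumina bead arrays in each. Each line is an established culture from a body-cavity lymphoma driven by Kaposi sarcoma herpesvirus, and both carry that virus. How long the cells were exposed was not stated in the labels. By the series' own text each pair of arrays is a technical replication, so p-values measure the spread between arrays and not between cultures. Each pair is named array a and array b.

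AP-1 is a dimer of basic leucine zipper (bZIP) proteins. JUN proteins pair with each other or with FOS proteins, FOS proteins need a JUN partner to bind DNA, and the dimers bind the palindromic AP-1 site or the related cyclic AMP response element. Immediate-early genes such as FOS, EGR1 and IER2 are transcribed within minutes of a growth factor, antigen receptor or stress signal without new protein synthesis, and their mRNAs are short-lived. In B and plasma cells the FOS-like protein BATF, paired with a JUN protein, binds composite DNA elements together with IRF4, a factor whose loss follows the lenalidomide-driven degradation of IKZF1 and IKZF3 in myeloma.

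The promoters of the 4 members that passed the test for lenalidomide in at least 1 line, JUN, FOSL2, IER2 and EGR1, are shown for the letters they hold just before the start of the gene. Each is the 250 bases before the annotated start, from RefSeq on GRCh38.p14, read 5′ to 3′ on the strand of the gene. JUN lies at chr1:58784048-58784297 on the minus strand, FOSL2 at chr2:28392608-28392857, IER2 at chr19:13150161-13150410 and EGR1 at chr5:138465229-138465478, these on the plus strand. Capitals mark matches to the motifs named next.
JUN: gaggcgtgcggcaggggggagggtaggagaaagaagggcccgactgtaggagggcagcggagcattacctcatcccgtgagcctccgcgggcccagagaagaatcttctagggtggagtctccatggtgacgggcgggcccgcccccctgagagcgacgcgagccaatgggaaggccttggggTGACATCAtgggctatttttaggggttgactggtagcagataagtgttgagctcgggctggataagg
FOSL2: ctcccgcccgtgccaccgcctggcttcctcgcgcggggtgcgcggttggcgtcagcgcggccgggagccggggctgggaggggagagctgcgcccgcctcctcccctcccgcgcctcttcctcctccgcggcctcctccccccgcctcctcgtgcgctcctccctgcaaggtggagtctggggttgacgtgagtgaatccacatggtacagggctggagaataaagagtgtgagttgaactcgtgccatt
IER2: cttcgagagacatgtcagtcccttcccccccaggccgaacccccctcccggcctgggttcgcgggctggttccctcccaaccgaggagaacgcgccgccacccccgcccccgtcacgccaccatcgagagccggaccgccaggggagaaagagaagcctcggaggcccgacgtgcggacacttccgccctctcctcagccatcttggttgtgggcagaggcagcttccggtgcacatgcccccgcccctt
EGR1: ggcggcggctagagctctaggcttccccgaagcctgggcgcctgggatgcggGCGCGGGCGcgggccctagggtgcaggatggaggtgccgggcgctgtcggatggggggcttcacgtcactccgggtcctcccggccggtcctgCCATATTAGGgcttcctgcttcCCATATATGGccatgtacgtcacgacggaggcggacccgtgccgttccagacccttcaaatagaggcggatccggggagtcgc

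The motifs searched, on both strands of these 250 bases, were the AP-1 site TGANTCA, the cyclic AMP response element TGACGTCA, its variant TGACATCA known from the JUN promoter, the EGR1 site GCGNGGGCG and the serum response factor site known as the CArG box. None of the motifs is contained in another. RefSeq promoters were found for 9 of the 10 genes, in 10 entries. FOSL1 was not among them. JUN held TGACATCA from base 67 to base 60 before the start, and ATF3 held the same letters from base 123 to base 116. That variant was present in 2.37% of 35116 promoters of the same length. EGR1 held 2 CArG boxes, CCATATTAGG from base 105 to base 96 and CCATATATGG from base 83 to base 74, and 1 EGR1 site at bases 198 to 190. A CArG box was present in 1.16% of promoters and an EGR1 site in 8.41%. JUND held TGACGTCA from base 200 to base 193, a motif in 1.65% of promoters. The AP-1 site had no match in the windows of these 9 genes and was present in 6.57% of promoters. A match is a description of the letters in the window and not a bound site.

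Arrays had median deposited intensities of 137 to 153, and 47.3% to 49.4% of probes were above background. Over the probes tested, r between the arrays of a pair was 0.993 to 0.995, across probes that are not independent replicates. A probe was tested if both arrays of 1 or more groups had it above background, as for 24097 probes. Of the 12 member probes 10 were tested, 1 for each gene. The other 2, both for ATF3, were above background on 0 of 8 arrays, with deposited intensities of 114 to 140. Of 8 markers of the plasmablast-like cell of this lymphoma, 7 were above background on both arrays of every group. TNFRSF8, which encodes CD30, was above background on 0 of 8 arrays. Of the 6 mature B-cell markers 5 had a probe, and 1 or 2 of these were above background on both arrays of a group. Levels below are log2 normalized intensities and are compared between groups for 1 probe at a time, not between genes. The exception is the summed intensity of a marker list, which adds probes of different genes, those not above background included.

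Lenalidomide changed a small set of these genes. JUN rose in both lines, IER2 rose in BC3, FOSL2 rose in BCBL1 and EGR1 fell in BCBL1. In BC3, 2 of the 10 tested probes rose and 0 fell by limma with Benjamini-Hochberg adjustment over all tested probes, while 5 had an unadjusted p under 0.05, beside 14.2% of all tested probes. Over all tested probes 2.64% were called in BC3, of which 1.97% rose and 0.668% fell as shares of those tested. In BCBL1, 2 rose and 1 fell, and 6 had an unadjusted p under 0.05, beside 14.3% of all tested probes. Over all tested probes 1.74% were called in BCBL1, with 1.31% that rose and 0.436% that fell. The 10 probes had a median log2 change of 0.33 in BC3 and 0.22 in BCBL1, beside medians of -0.013 and -0.012 over all tested probes. Arrays of the lenalidomide and DMSO groups did not overlap for 10 of the 10 probes in BC3 and for 7 of the 10 in BCBL1. That held for 45.8% of all tested probes in BC3 and 43.2% in BCBL1. FOSB is among the 5 and the 10 of BC3 and enters the BC3 median. It was tested only through BC3 with lenalidomide, the group where it was highest. When median scaling replaced quantile normalization, 45.6% of all called probes in BCBL1 were higher, against 75.0% with quantile normalization, and the signs of the 4 genes named here were kept.

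**Figure D1:**
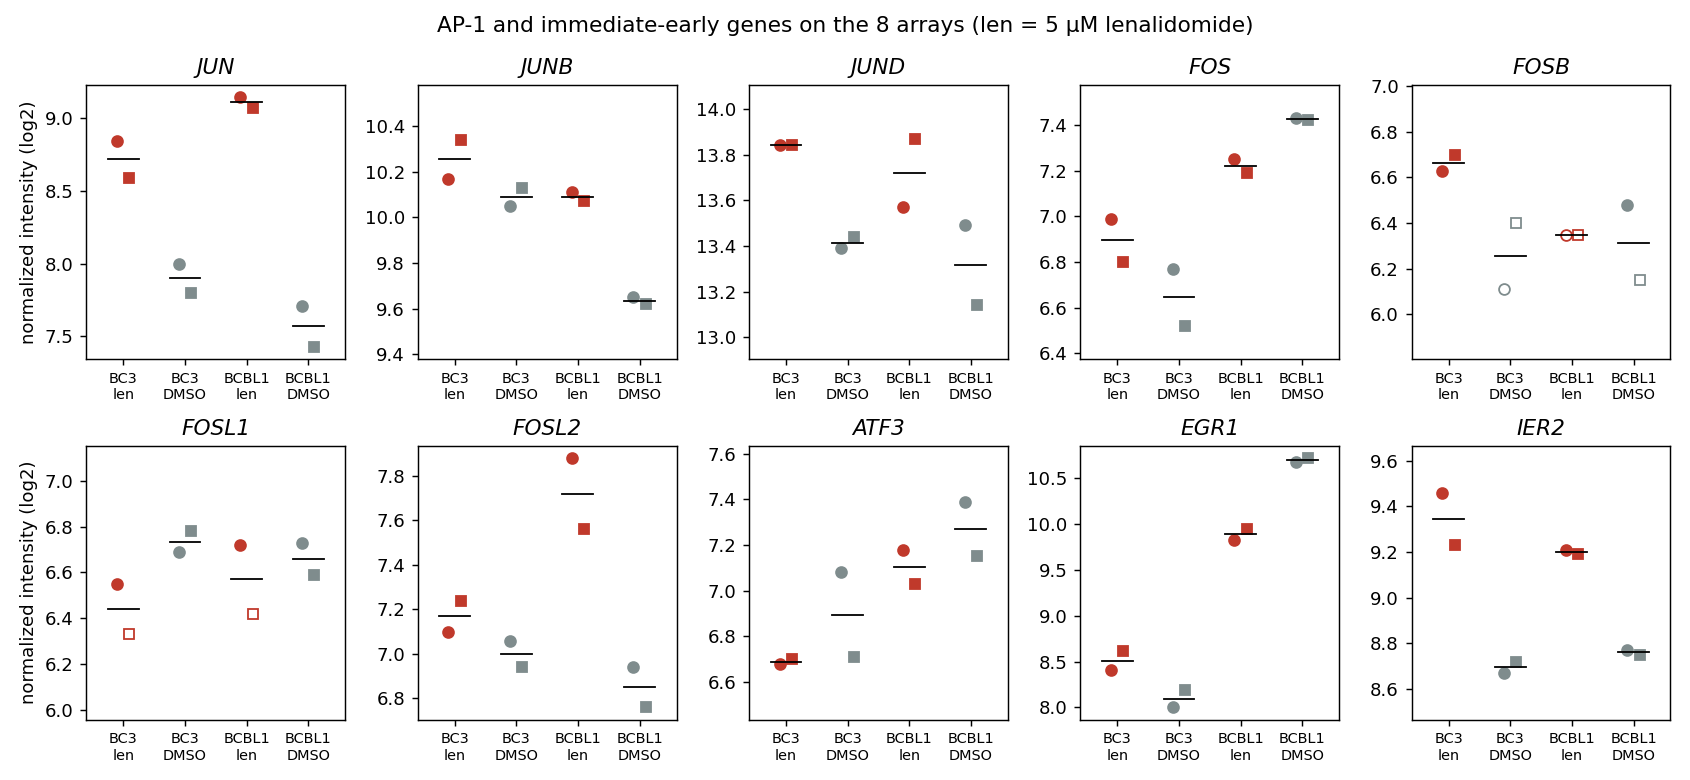
Normalized intensity (log2, each panel with its own axis range) of the 10 tested probes on each array, for BC3 with lenalidomide, BC3 with DMSO, BCBL1 with lenalidomide and BCBL1 with DMSO. Circles are array a, squares array b, open symbols are not above background, and the bar is the mean of a group; JUN stood at 8.59 to 9.14 on the lenalidomide arrays and at 7.43 to 8.00 on the DMSO arrays, and EGR1 was highest in BCBL1 with DMSO at 10.68 and 10.72.

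JUN encodes c-Jun, the AP-1 subunit that is activated by Jun N-terminal kinase and that drives its own promoter. In BC3 its log2 intensity was 8.84 and 8.59 with lenalidomide, against 8.00 and 7.80 with DMSO. In BCBL1 it was 9.14 and 9.07 with lenalidomide, against 7.71 and 7.43 with DMSO. All 4 lenalidomide arrays lay above all 4 DMSO arrays, and the deposited intensities ran from 434 to 598 with lenalidomide and from 241 to 313 with DMSO. The share of all tested probes that split this way over both lines was not counted. The log2 change was 0.82 ± 0.14 in BC3 (SE, n = 2 arrays a group, 1.76-fold, adjusted p = 0.00618) and 1.54 ± 0.14 in BCBL1 (2.90-fold, adjusted p = 4.04e-05). The difference between the lines was 0.72 ± 0.20 with a 95% confidence interval of 0.28 to 1.15, and it did not pass the threshold (adjusted p = 0.261). Bulk RNA does not tell apart a change in the share of cells that make a transcript from a change in the amount per cell. The BC3 call was lost without DMSO array b (0.71, adjusted p = 0.106), without lenalidomide array a (0.69, adjusted p = 0.0772), with an offset of 16 (0.92, adjusted p = 0.0506), and on the authors' log2 values (1.01, adjusted p = 0.0578). The BCBL1 call held in each of the 9 alternatives and without any 1 of the 4 arrays of that line, at log2 changes of 1.39 to 1.90.

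JUNB and JUND encode the other JUN proteins. JunB is known in lymphoid cells as a partner of BATF, and JunD is the subunit that resting cells keep at a steady level. JUNB had log2 intensities of 10.17 and 10.34 in BC3 with lenalidomide, against 10.05 and 10.13 with DMSO. In BCBL1 it had 10.11 and 10.07 with lenalidomide, against 9.65 and 9.62 with DMSO. The groups were separate in both lines, yet the changes of 0.16 ± 0.12 in BC3 and 0.45 ± 0.12 in BCBL1 did not pass the threshold (adjusted p = 0.617 and 0.0948).

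JUND had 13.84 on both BC3 arrays with lenalidomide, against 13.39 and 13.44 with DMSO. In BCBL1 its values were 13.57 and 13.87 with lenalidomide, against 13.49 and 13.14 with DMSO. Its changes were 0.42 ± 0.15 in BC3 and 0.41 ± 0.15 in BCBL1, with adjusted p = 0.188 and 0.215. The 95% confidence intervals ran from 0.11 to 0.74 and from 0.10 to 0.73, so the JUND effects of the lines differed by -0.01 with an interval of -0.46 to 0.44. Of the 3 JUN family genes only JUN passed the test, in both lines. The JUNB interval in BC3 ran from -0.10 to 0.43, so the sign of its change there is not settled.

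FOS, FOSB, FOSL1 and FOSL2 encode the FOS proteins; c-Fos and FosB are the rapidly induced ones, and Fra-1 (FOSL1) and Fra-2 (FOSL2) are slower and longer-lived. FOSL2 had log2 intensities of 7.88 and 7.56 in BCBL1 with lenalidomide, against 6.94 and 6.76 with DMSO. In BC3 it had 7.10 and 7.24 with lenalidomide, against 7.06 and 6.94 with DMSO. The 2 BCBL1 arrays with lenalidomide were the highest of the 8. FOSL2 rose in BCBL1 by 0.87 ± 0.14 (1.83-fold, adjusted p = 0.00479), beside 0.17 ± 0.14 in BC3 (95% confidence interval -0.14 to 0.47, adjusted p = 0.657). The difference between lines was 0.70 ± 0.20 (interval 0.27 to 1.13) and did not pass (adjusted p = 0.261). The BCBL1 call was lost without DMSO array b (0.78, adjusted p = 0.0659) and without lenalidomide array a (0.72, adjusted p = 0.0653) of BCBL1, and held in the 9 other alternatives, with 1.41 on the authors' log2 values.

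FOS had log2 intensities of 6.99 and 6.80 in BC3 with lenalidomide, against 6.77 and 6.52 with DMSO. In BCBL1 it had 7.25 and 7.19 with lenalidomide, against 7.43 and 7.42 with DMSO. The lenalidomide arrays lay above the DMSO arrays in BC3 and below them in BCBL1. The changes were 0.25 ± 0.13 and -0.21 ± 0.13 (adjusted p = 0.434 and 0.518), and the difference between lines was -0.46 ± 0.19 (adjusted p = 0.478).

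FOSB and FOSL1 were near background. FOSB had 6.63 and 6.70 in BC3 with lenalidomide, above background on both arrays, against 6.11 and 6.40 with DMSO, not above background on either. The probe was tested only because it passed the filter in BC3 with lenalidomide, the group where it was highest. Its comparison in BC3 is therefore a description. Set against a floor on the DMSO arrays, the lenalidomide mean was 1.19-fold. The floor is the lowest signal above background on each DMSO array, or the probe's own signal where that is higher. This ratio carries no error and is no lower limit of the change, which was 0.41 ± 0.15 (95% confidence interval 0.10 to 0.72). The change did not pass the threshold (adjusted p = 0.196). In BCBL1, FOSB was above background on 0 of 2 arrays with lenalidomide and on 1 of 2 with DMSO, so no direction is given. FOSL1 ranged from 6.33 to 6.78 over the 8 arrays, with changes of -0.30 ± 0.14 in BC3 and -0.08 ± 0.14 in BCBL1 (adjusted p = 0.365 and 0.846). On the lenalidomide arrays FOSL1 was above background on 1 of 2 in each line.

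ATF3 encodes a stress-induced bZIP protein that pairs with JUN proteins and often represses. The 1 ATF3 probe tested had 6.68 and 6.70 in BC3 with lenalidomide, against 7.08 and 6.71 with DMSO. In BCBL1 it had 7.18 and 7.03 with lenalidomide, against 7.39 and 7.15 with DMSO. The changes were -0.21 ± 0.15 and -0.17 ± 0.15 (adjusted p = 0.575 and 0.670), with 95% confidence intervals of -0.53 to 0.11 and -0.48 to 0.15. ATF3 had no call in either line, on a probe near background. The part of the TGACATCA letters in the changes of ATF3 or JUN was not tested.

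EGR1 encodes a zinc finger factor that follows activation of the ERK pathway and serum response factor. In BC3 its log2 intensity was 8.41 and 8.61 with lenalidomide, against 8.00 and 8.19 with DMSO. In BCBL1 it was 9.83 and 9.95 with lenalidomide, against 10.68 and 10.72 with DMSO. The lenalidomide arrays lay above the DMSO arrays in BC3 and below them in BCBL1, where the deposited intensities were 825 and 979 with lenalidomide and 1705 and 1886 with DMSO. EGR1 fell by 0.81 ± 0.13 in BCBL1 (0.572-fold, adjusted p = 0.00527), beside 0.42 ± 0.13 in BC3 (adjusted p = 0.141). The call in BCBL1 was lost without DMSO array b (-0.78, adjusted p = 0.0552) and without lenalidomide array a (-0.75, adjusted p = 0.0621) of BCBL1, on the authors' log2 values (-0.84, adjusted p = 0.0659) and with an offset of 16 (-0.83, adjusted p = 0.0539).

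For EGR1 the difference between the lenalidomide effects, BCBL1 minus BC3, was -1.22 ± 0.19 (95% confidence interval -1.62 to -0.82, adjusted p = 0.00906). It was the 1 call among the 10 member probes in this comparison, in which 0.261% of all tested probes passed, 0.0913% with a positive and 0.17% with a negative difference. An unadjusted p under 0.05 was found for 4 of the 10, EGR1, JUN, FOSL2 and FOS, and for 9.3% of all tested probes. The EGR1 call was lost without BC3 DMSO array a (-1.13, adjusted p = 0.0914), without BC3 lenalidomide array b (-1.12, adjusted p = 0.0786) and without BCBL1 lenalidomide array a (-1.16, adjusted p = 0.0592). It was also lost on the authors' log2 values (-1.36, adjusted p = 0.130) and with an offset of 16 (-1.30, adjusted p = 0.114).

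IER2, an immediate-early gene for a small nuclear protein, had log2 intensities of 9.46 and 9.23 in BC3 with lenalidomide, against 8.67 and 8.72 with DMSO. In BCBL1 it had 9.21 and 9.19 with lenalidomide, against 8.77 and 8.75 with DMSO. All 4 lenalidomide arrays lay above all 4 DMSO arrays, again a split whose share over all tested probes was not counted. IER2 rose by 0.65 ± 0.13 in BC3 (1.57-fold, adjusted p = 0.0117), and its value in BCBL1 was 0.44 ± 0.13 (1.35-fold, adjusted p = 0.117). The difference between lines was -0.22 ± 0.18 with an interval of -0.60 to 0.17 (adjusted p = 0.765). The BC3 call was lost without DMSO array a (0.63, adjusted p = 0.117), DMSO array b (0.68, adjusted p = 0.0936) or lenalidomide array a (0.54, adjusted p = 0.121) of BC3, and on the authors' log2 values (0.74, adjusted p = 0.0615) and with an offset of 16 (0.70, adjusted p = 0.0608).

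**Figure D2:**
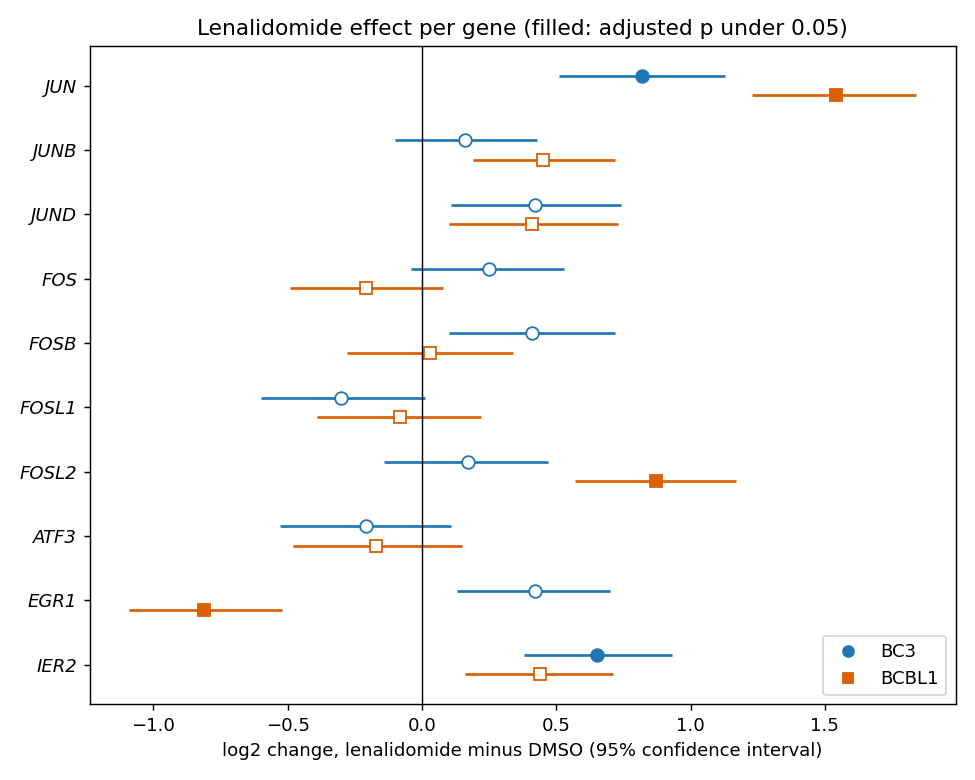
Log2 change, lenalidomide minus DMSO, for the 10 tested probes in BC3 (circles) and BCBL1 (squares), with 95% confidence intervals from the limma fit; filled symbols have an adjusted p under 0.05. JUN was to the right of 0 and filled in both lines, while EGR1 was at 0.42 in BC3, open, and at -0.81 in BCBL1, filled.

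A fit with the cell line as the unit of replication (the mean of the arrays of a group, n = 2 lines) asked which members moved together in both lines. JUN, at 1.18 ± 0.15 (adjusted p = 0.00193), and IER2, at 0.55 ± 0.12 (adjusted p = 0.0408), rose in it. They were 2 of 10 tested member probes, where 1.49% of all tested probes passed, 1.22% upward and 0.27% downward. JUND followed at 0.42 ± 0.11 (adjusted p = 0.121), FOSL2 at 0.52 ± 0.15 (adjusted p = 0.155) and JUNB at 0.31 ± 0.12 (adjusted p = 0.316). EGR1 stood at -0.19 ± 0.21 (adjusted p = 0.777), the mean of effects of opposite sign. Both calls were lost on the authors' log2 values (JUN 1.45, adjusted p = 0.244; IER2 0.62, adjusted p = 0.398) and with an offset of 16 (JUN 1.32, adjusted p = 0.151; IER2 0.58, adjusted p = 0.305).

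**Figure D3:**
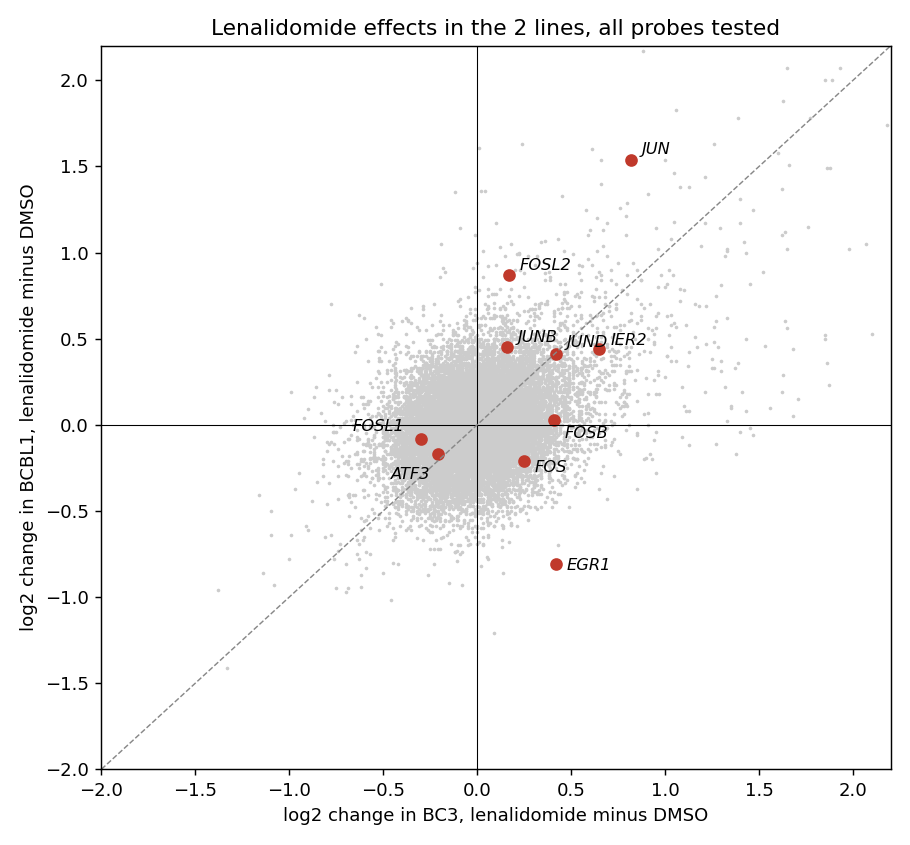
Log2 change with lenalidomide in BC3 (x axis) and in BCBL1 (y axis) for each tested probe in grey (24086 shown, 11 outside the axes) and the 10 member probes in red; the dashed line marks equal effects. JUN, at 0.82 and 1.54, and IER2, at 0.65 and 0.44, lay on the positive side of both axes, and EGR1, at 0.42 and -0.81, lay on opposite sides.

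The lines also differed from each other without drug. BCBL1 with DMSO was higher than BC3 with DMSO for EGR1 and FOS and lower for JUNB, 3 of 10 tested member probes, where 33.2% of all tested probes passed, 17.2% higher and 16% lower in BCBL1. EGR1 was higher by 2.60 ± 0.13 (6.08-fold, adjusted p = 1.35e-09), and all 8 alternatives and all 4 fits without an array of these groups kept that call. FOS was higher by 0.78 ± 0.13 (1.72-fold, adjusted p = 3.69e-04), and this call too was kept in all of them. On the authors' log2 values the FOS difference was 1.42. FOS lay near background in BC3 with DMSO, at deposited intensities of 164.3 and 161.5 where the background thresholds were 140 and 154. JUNB was lower by 0.46 ± 0.12 on the log2 scale in BCBL1 (adjusted p = 0.0110), a call lost without BC3 DMSO array b (-0.41, adjusted p = 0.0874) and without BCBL1 DMSO array b (-0.44, adjusted p = 0.0586). Arrays of the lines did not overlap for 7 of the 10 probes, beside 65.7% of all tested probes.

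With lenalidomide, EGR1, FOSL2 and ATF3 were higher in BCBL1 than in BC3, again 3 of 10, where 34% of all tested probes passed, 17.4% higher and 16.7% lower in BCBL1. Arrays of the lines did not overlap for 8 of the 10 probes, beside 65% of all tested probes. FOSB, tested only through BC3 with lenalidomide, is among the 8. EGR1 was higher by 1.38 ± 0.13 (2.60-fold, adjusted p = 1.44e-06), FOSL2 by 0.55 ± 0.14 (1.47-fold, adjusted p = 0.00709) and ATF3 by 0.42 ± 0.15 (adjusted p = 0.0403). The ATF3 call was lost without any 1 of the 4 arrays compared (adjusted p = 0.0643 to 0.188). It was also lost in 4 of 8 alternatives: with median scaling (0.35, adjusted p = 0.0971), cyclic loess (0.39, adjusted p = 0.0571), an offset of 16 (0.59, adjusted p = 0.0511) and no filter on dim probes (0.42, adjusted p = 0.0746). On the authors' log2 values the ATF3 difference was 0.82 (adjusted p = 0.0416). FOSL2 lost its call without BC3 lenalidomide array a (0.48, adjusted p = 0.0640) and without BCBL1 lenalidomide array a (0.40, adjusted p = 0.0896), and stood at 0.83 on the authors' log2 values. JUN was at 0.39 ± 0.14 in BCBL1 over BC3 with lenalidomide (adjusted p = 0.0506) and at -0.33 ± 0.14 with DMSO (adjusted p = 0.0961). From high to low, the JUN means were 9.10 in BCBL1 with lenalidomide, 8.72 in BC3 with lenalidomide, 7.90 in BC3 with DMSO and 7.57 in BCBL1 with DMSO; the neighbours that share a treatment did not differ at the threshold. The JUN difference under lenalidomide passed it with 1 probe per gene (adjusted p = 0.0389), with probes above background on all arrays (adjusted p = 0.0402) and without BC3 lenalidomide array a (adjusted p = 0.0459). The EGR1 order was 10.70 in BCBL1 with DMSO, 9.89 in BCBL1 with lenalidomide, 8.51 in BC3 with lenalidomide and 8.09 in BC3 with DMSO, and the neighbours within BC3 did not differ at the threshold. These comparisons use the same arrays as the lenalidomide effects and are given as levels beside them.

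Genes around AP-1 were read from 4 lists, each gene by its brightest tested probe. Of 37 other immediate-early genes 28 were tested. In BC3, 7 rose and 0 fell by limma, and in BCBL1 6 rose and 0 fell, where 2.7% and 1.75% of all 12719 genes tested rose and 0.849% and 0.487% fell. An unadjusted p under 0.05 was found for 10 of the 28 in BC3 and 14 in BCBL1, beside 15.9% and 15.2% of all genes tested. The median log2 change of the list was 0.07 in BC3 and 0.08 in BCBL1, beside -0.012 and -0.009 over all genes. The genes called in both lines were RHOB, GADD45A, KLF6 and SGK1.

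RHOB, a gene induced by stress and growth factors, had 9.75 and 9.27 in BC3 with lenalidomide, against 7.78 and 7.55 with DMSO. In BCBL1 it had 11.26 and 11.79 with lenalidomide, against 9.55 and 9.48 with DMSO. It rose by 1.85 ± 0.18 in BC3 and 2.00 ± 0.18 in BCBL1 (adjusted p = 4.08e-05 and 3.66e-05). GADD45A, a growth arrest gene upstream of stress kinases, rose by 1.64 ± 0.13 and 1.12 ± 0.13 (adjusted p = 4.27e-06 and 2.83e-04), and a second GADD45A probe gave 1.21 and 1.17. KLF6, a zinc finger factor, rose by 0.85 ± 0.13 in BC3 and 0.73 ± 0.13 in BCBL1. SGK1, a kinase gene induced by serum and glucocorticoids, rose by 1.10 ± 0.12 in BCBL1 and 0.59 ± 0.12 in BC3. KLF10 rose by 0.67 ± 0.14 in BC3 on its brightest probe, while 2 other KLF10 probes gave -0.09 and 0.48 there (adjusted p = 0.815 and 0.0658).

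Of 23 genes for AP-1 partners and other bZIP factors, 15 were tested. BATF rose in BC3 as the 1 call of that line, with 0 in BCBL1 by limma. Over all genes tested, 2.7% rose and 0.849% fell in BC3, and 1.75% rose and 0.487% fell in BCBL1. An unadjusted p under 0.05 was found for 2 of the 15 in each line, beside 15.9% and 15.2% of all genes tested. BATF had 10.49 and 10.56 in BC3 with lenalidomide, against 9.87 and 9.97 with DMSO, a change of 0.61 ± 0.14 (adjusted p = 0.0302). In BCBL1 its change was 0.42 ± 0.14 (adjusted p = 0.179). The list medians were 0.01 in BC3 and -0.01 in BCBL1, beside -0.012 and -0.009 over all genes.

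Of 30 genes known as AP-1 targets 16 were tested. LMNA, which encodes lamins A and C, rose in both lines, by 0.96 ± 0.14 in BC3 (adjusted p = 0.00142) and 1.02 ± 0.14 in BCBL1 (adjusted p = 0.00121). A dimmer LMNA probe gave 0.54 and 0.93 (adjusted p = 0.120 and 0.00842). PLAU, the gene of urokinase, had 8.36 and 8.22 in BCBL1 with lenalidomide, against 6.87 and 6.51 with DMSO. Its rise in BCBL1 was 1.60 ± 0.15 (adjusted p = 4.29e-05), the change in BC3 stood at 0.61 ± 0.15 (adjusted p = 0.0518), and the difference between lines was 1.00 ± 0.22 (adjusted p = 0.0960). By limma 1 of the 16 rose in BC3 and 2 in BCBL1, beside 2.7% and 1.75% of all genes tested. No gene of this list fell by limma, beside 0.849% and 0.487% of all genes tested. An unadjusted p under 0.05 was found for 8 of 16 in BC3, beside 15.9% of all genes tested, and for 5 of 16 in BCBL1, beside 15.2%. The list medians were 0.15 in BC3 and 0.10 in BCBL1, beside -0.012 and -0.009 over all genes.

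The MAP kinase pathway list held the kinases that phosphorylate JUN and the factors that switch on FOS and EGR1. Of its 31 genes 26 were tested, with 0 calls in either line by limma. Over all genes tested, 2.7% rose and 0.849% fell in BC3, and 1.75% rose and 0.487% fell in BCBL1. An unadjusted p under 0.05 was found for 6 in BC3 and 4 in BCBL1 (15.9% and 15.2% over all genes tested). The medians were -0.07 and -0.06, beside -0.012 and -0.009 over all genes.

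**Figure D4:**
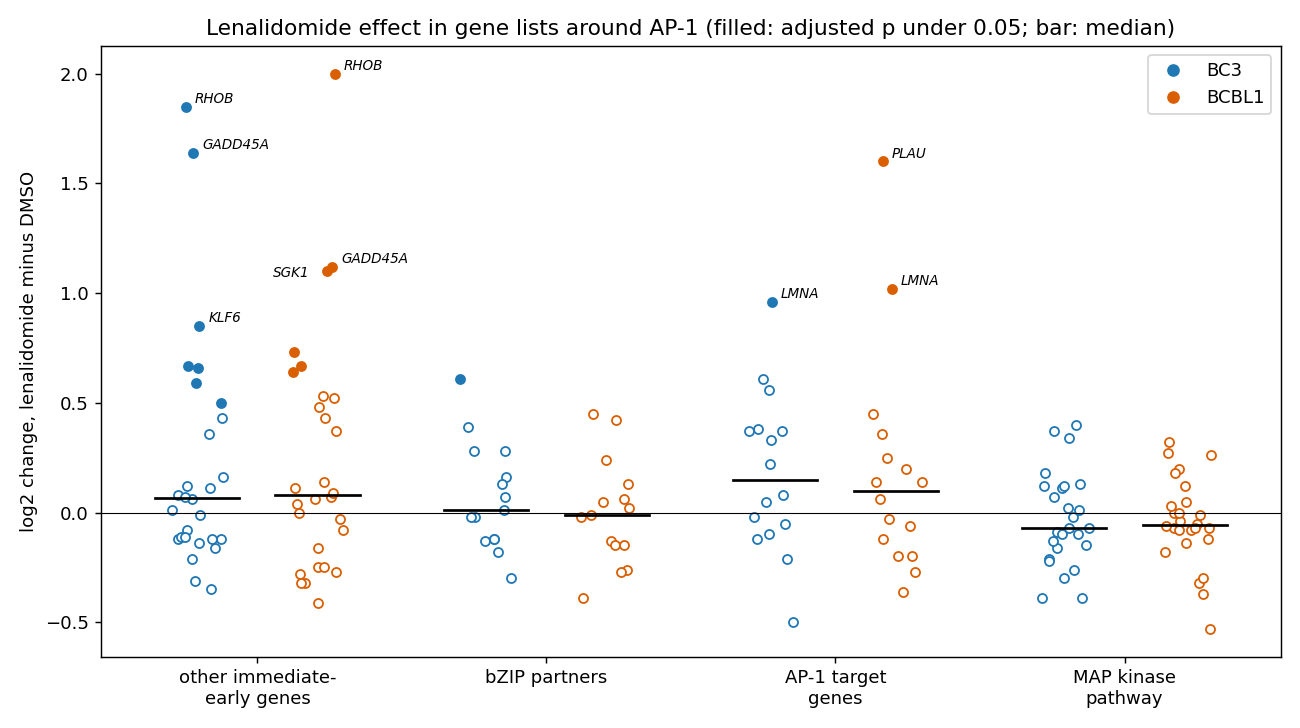
Log2 change, lenalidomide minus DMSO, of each tested gene of the 4 lists in BC3 (blue) and BCBL1 (orange), with points spread sideways for visibility, the list median as a bar and filled points for an adjusted p under 0.05. RHOB reached 1.85 and 2.00 among the immediate-early genes, PLAU reached 1.60 in BCBL1 among the AP-1 targets, and no point of the MAP kinase list is filled.

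The genes whose level over the 8 arrays was most like that of JUN were DEPP1, CHST15, BCL3, GPX8 and MGP, with Pearson's r of 0.967, 0.965, 0.962, 0.956 and 0.952. The search covered 2807 genes whose values spanned at least 1 log2 unit, and r is a description over 8 arrays that share lines and treatments. DEPP1 had changes of 1.39 ± 0.15 in BC3 and 1.78 ± 0.15 in BCBL1, and MGP 3.54 ± 0.13 and 6.17 ± 0.13. Most like EGR1 were PLEKHF2, P2RX5, ZMYM3, TMEM216 and PRICKLE1, with r of 0.992 to 0.986. These were higher in BCBL1 than in BC3 under DMSO by 0.94 to 2.01 on the log2 scale, and their lenalidomide values ran from -0.51 to -0.21 in BCBL1 and from 0.03 to 0.20 in BC3.

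Markers of other cell types moved with lenalidomide in part. Of 7 myeloid markers the summed normalized intensity was 2220 to 2330 in BC3 with lenalidomide, against 883 to 886 with DMSO, and 805 to 836 in BCBL1 with lenalidomide, against 815 to 838 with DMSO. S100A8, S100A9 and CD68, singled out after their values were seen, rose in BC3 by 2.47, 2.91 and 0.67 on the log2 scale, and LYZ was above background on none of the 8 arrays. CD14 (0.15) and MPO (-0.17) were not called in BC3. No tested marker of this list was called in BCBL1. There S100A9 stood at 0.53 (adjusted p = 0.0894 by limma), CD14 at 0.17, MPO at 0.04, S100A8 at -0.15 and CD68 at -0.24. Of 8 T and NK cell markers the sum was 2100 to 2270 against 1910 to 1990 in BC3 and 942 to 1000 against 762 to 775 in BCBL1, in each case lenalidomide against DMSO. CD2 rose in BC3 by 0.61 (adjusted p = 0.0187) and in BCBL1 by 0.93 (adjusted p = 0.00123), while CD3E fell in BC3 (-0.51, adjusted p = 0.0498). CD3G and CD4 were called in neither line. CD4 made up most of the sum in BC3, at 10.58 and 10.44 with lenalidomide, against 10.23 and 10.36 with DMSO. Its change there was 0.21 (adjusted p = 0.523 by limma), and in BCBL1 CD4 was not above background on any array. CD8A, NKG7 and GNLY were above background on none of the 8 arrays. Of 7 epithelial, stromal and endothelial markers the sum was 7140 to 7490 against 6740 to 7170 in BC3 and 936 to 960 against 659 to 663 in BCBL1, with VWF above background on none of the 8 arrays. EPCAM made up most of this sum in BC3, at 12.60 and 12.48 with lenalidomide, against 12.55 and 12.64 with DMSO. KRT8 rose by 1.86 in BC3 (adjusted p = 6.87e-07) and by 1.49 in BCBL1 (adjusted p = 1.17e-05), and CDH1 rose by 1.03 in BC3 (adjusted p = 7.1e-04). In BCBL1 CDH1 stood at 0.58 (adjusted p = 0.0537 by limma), with its DMSO arrays not above background. The CDH1 difference between lines was -0.45 and did not pass (adjusted p = 0.513 by limma). KRT18 (0.27 in BC3 and 0.11 in BCBL1) and PECAM1 (0.01 and 0.23) were called in neither line. Of the plasmablast markers TNFRSF17 fell in both lines (-0.78 in BC3 and -0.64 in BCBL1, adjusted p = 0.00446 and 0.0221). The other markers tested, PRDM1, IRF4, SDC1, XBP1, MZB1 and CD38, were called in neither line. Their changes ran from -0.23 to 0.27 in BC3 and from -0.21 to 0.60 in BCBL1. IRF4 stood at -0.22 and -0.18 (adjusted p = 0.592 and 0.669). CD2, CD3E, CD4, EPCAM, KRT8, CDH1 and TNFRSF17 too were singled out after their values were seen. The part of these markers in the AP-1 results was not tested.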

How the data were processed

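RNA was measured on 8 Illumina bead arrays of 1 colour. The authors deposited linear probe intensity values with no normalization between arrays, as the table's name and values show, without detection p-values. The authors also deposited a log2 table; limma is named in the submitters' processing notes, and its settings were not stated there. Columns of the intensity table give line and treatment; arrays a and b matched replicates 1 and 2 of the log2 table with a rank correlation of 1.

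Intensities were corrected with normexp (offset 50), quantile-normalized and taken to log2 (R 4.3.3, limma 3.58.1). The offset makes log2 changes of dim genes too small. Background was the mode of an array's signals, with the SD taken from signals under it and the normal quantile for a p of 0.05. A probe listed at 0, 1 in all, was left out. Of 47322 probes, 24097 were kept. Probes with 1 symbol (30113) were named by the platform annotation, updated through RefSeq.

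limma fitted a mean per group over all 8 arrays (4 residual and 9.96 prior degrees of freedom), with Benjamini-Hochberg adjustment over all kept probes and a threshold of 0.05. Leaving out an array, the lone array of a group was assumed to vary like the others. In the fit with the line as replicate there were 1 residual and 11.11 prior degrees of freedom. Members and lists were chosen with earlier results of these data known. The genes named are every member, up to 4 called genes per list and line by size of change, with genes needed to read counts of 5 or fewer, and the 5 genes most correlated with JUN and with EGR1. The intensity columns carry no replicate number, and same-numbered samples of the log2 table were checked for pairing (closing section). No slide or scan label was found in the tables, so no batch was tested.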

Additional observations from a re-analysis of the deposited data

Results flagged for a closer look

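The lenalidomide effect on EGR1 differed between the lines, by -1.22 on the log2 scale for BCBL1 minus BC3 (adjusted p = 0.00906 by limma's test of the difference). The change was -0.81 in BCBL1 and 0.42 in BC3. In BC3 the change itself did not pass the threshold (adjusted p = 0.141). The 2 DMSO arrays of BCBL1 stood at 10.68 and 10.72, the highest EGR1 levels of the 8 arrays, and these arrays enter both the effect in BCBL1 and its difference from BC3. The call for the difference held in 5 of 8 alternatives, at -1.41 to -1.22. Fits without 1 array gave -1.33 to -1.12, and some of them lost the call, as listed above. The cause of the difference was not tested.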

How the results depend on the processing

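Counts of member probes called moved with the offset and the source of the values, both of which change the scale of dim probes; the cause of the lost calls was not tested. With offset 16 and with the authors' log2 values alike, the count was 0 in BC3 (against 2), 0 for the difference between lines (against 1) and 0 with the line as replicate (against 2). Leaving out an array gave 0 to 2 in BC3, 1 to 3 in BCBL1 (against 3), 0 to 1 for the difference, 2 to 4 between lines under DMSO (against 3) and 1 to 4 under lenalidomide (against 3). Replicate numbers did not pair the samples: differences between replicates 1 and 2 correlated between groups at -0.067 to 0.046. The authors' log2 values with the number as a replicate block called 1 member probe in BC3, 2 in BCBL1, 0 for the difference and 4 in each comparison of the lines. It lost EGR1 in BCBL1 (adjusted p = 0.0848), the EGR1 difference (adjusted p = 0.168) and IER2 in BC3 (adjusted p = 0.11), and called FOS between lines under lenalidomide (0.58, adjusted p = 0.0496).

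Over all probes, 636 passed in BC3 in the fit reported, 261 with offset 16, 316 on the authors' values, 226 with the block and 197 to 590 without an array. In BCBL1 it was 420, with 162, 175, 113 and 153 to 337, and 235 with that line's arrays alone. For the difference it was 63, with 12, 19, 10 and 33 to 47, and 31 with probes above background on all arrays. With the line as replicate it was 360, with 691 under median scaling (57.6% higher against 81.9%), 30 with offset 16, 4 on the authors' values and 234 with 1 probe per gene. Between lines, 1 probe per gene gave 5220 under DMSO (against 8003) and 5378 under lenalidomide (against 8204). There, 35.9% of calls under lenalidomide were higher in BCBL1 with median scaling, against 51.0%.

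Signs changed for values that passed no threshold. ATF3's difference between lines was 0 with median scaling and -0.14 to 0.23 without an array, and JUND's was 0 with cyclic loess and -0.19 to 0.17 without an array. IER2 between lines under DMSO was -0.01 with median scaling. Without an array, FOSB ran from -0.10 to 0.22 between lines under DMSO and from -0.13 to 0.19 in BCBL1. FOSL1 ran from -0.01 to 0.28 between lines under lenalidomide and from -0.24 to 0.07 in BCBL1. JUND between lines ran from -0.28 to 0.07 under DMSO and from -0.27 to 0.04 under lenalidomide. FOSB, FOSL1, ATF3 and, in BC3, FOS lay near background, which limits what their probes can show.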
